A study of Rattus norvegicus with 8 samples.

Results

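The genes described here copy DNA during S phase or control entry into it. Of 40 listed genes, 36 had a probe under that name among the non-control probes of the rat arrays, and 31 of these had signal well above background in 4 or more livers and entered the test, out of 15011 genes tested. The probes of Cdt1, Pola1, Pola2, Pole2 and Ccne2 did not pass this filter, and Orc1, Orc2, Orc6 and Cdc45 appear in the files under the older names Orc1l, Orc2l, Orc6l and Cdc45l and were not counted. The methyl-donor-deficient (MDD) group was 4 Wistar rats, 2 females and 2 males, aged 21 days and born to dams whose food lacked vitamin B12 and folate from before pregnancy until weaning. The control group was 4 Wistar rats of the same age, 3 females and 1 male, whose dams ate standard food over the same period. All 8 livers were whole tissue, so fewer dividing cells and less RNA per cell cannot be told apart. The labels name no litter, some animals of a group could be littermates, and a p-value here reflects variation among these 8 rats alone.

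Livers were hybridised as 1 MDD and 1 control sample per array, in opposite dyes, on 4 Agilent 2-colour arrays. Between 59.1% and 65.5% of spots were well above background in each liver, and no spot was saturated. Values below are normalized log2 intensities, and differences are MDD minus control with the standard error (SE) of the limma fit. A gene was called where the p-value adjusted over all 15011 genes was under 0.05. Hepatocyte transcripts such as Alb, Ttr and Apoa1 were measured in all livers, and the 14 hepatocyte markers had mean log2 intensities of 15.64 to 16.20 in MDD livers and 16.15 to 16.39 in control livers.

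A replication origin is licensed in G1, when the origin recognition complex, Cdc6 and Cdt1 load the ring-shaped MCM2-7 helicase onto DNA, and geminin blocks Cdt1 afterwards. In S phase Mcm10, Cdc45 and the GINS complex turn the loaded ring into the moving helicase, primase and polymerase alpha lay down primers, replication factor C (RFC) loads the sliding clamp Pcna, and polymerases delta and epsilon extend the strands over DNA kept open by replication protein A (RPA). The flap nuclease Fen1 and the ligase Lig1 join Okazaki fragments, and topoisomerase II alpha separates the finished helices. E2f1, cyclin E and Cdk2 drive the G1 to S transition, and E2F factors are textbook regulators of many of these genes. Hepatocytes still divide in the weanling liver and leave the cycle as the animal matures.

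Each gene was read by a 60-base oligonucleotide. The probes of Prim1 and Rpa1 are shown because primase and RPA each hold 2 of the 7 called genes. The Prim1 probe lies at chr7:1321717-1321776 on the plus strand of the rn4 build, and the Rpa1 probe spans 814 bases at chr10:62618471-62619284 on the minus strand.
Prim1 probe: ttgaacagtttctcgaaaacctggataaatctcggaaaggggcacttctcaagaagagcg
Rpa1 probe: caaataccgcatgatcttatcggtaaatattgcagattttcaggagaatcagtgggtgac

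Promoters are shown because many replication genes share an E2F site. RefSeq promoters on the GRCr8 build, 250 bases before to 50 after the gene start, matched 34 of the 40 listed genes. Mcm5 (chr19:13488563-13488862, plus strand) and Mcm6 (chr13:42404303-42404602, minus strand) held the E2F letters TTTGGCGC, TTTCGCGC, TTTCCCGC or TTTGCCGC on either strand, marked in capitals, where 2 overlapping matches appear as a single run. Prim1 (chr7:1031212-1031511, plus strand) and Rfc5 (chr12:44868072-44868371, plus strand) held none of them in this window.
Mcm5 promoter: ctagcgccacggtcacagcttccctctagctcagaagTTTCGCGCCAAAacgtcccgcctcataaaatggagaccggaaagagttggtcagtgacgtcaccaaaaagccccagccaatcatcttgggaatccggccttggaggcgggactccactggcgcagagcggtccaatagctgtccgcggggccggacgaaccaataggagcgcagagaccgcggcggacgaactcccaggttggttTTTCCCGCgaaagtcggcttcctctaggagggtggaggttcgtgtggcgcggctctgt
Mcm6 promoter: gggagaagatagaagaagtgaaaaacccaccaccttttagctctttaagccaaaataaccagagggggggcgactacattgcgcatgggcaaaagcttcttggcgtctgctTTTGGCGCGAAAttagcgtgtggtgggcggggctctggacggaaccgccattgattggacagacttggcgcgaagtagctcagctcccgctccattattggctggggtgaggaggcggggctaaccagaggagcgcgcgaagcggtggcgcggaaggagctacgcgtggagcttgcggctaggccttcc
Prim1 promoter: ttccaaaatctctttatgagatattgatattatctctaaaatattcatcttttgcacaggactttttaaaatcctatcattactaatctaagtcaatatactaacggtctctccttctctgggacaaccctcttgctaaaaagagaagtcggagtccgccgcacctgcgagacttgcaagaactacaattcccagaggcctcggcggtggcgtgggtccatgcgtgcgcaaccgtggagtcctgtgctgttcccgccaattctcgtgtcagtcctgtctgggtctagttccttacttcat
Rfc5 promoter: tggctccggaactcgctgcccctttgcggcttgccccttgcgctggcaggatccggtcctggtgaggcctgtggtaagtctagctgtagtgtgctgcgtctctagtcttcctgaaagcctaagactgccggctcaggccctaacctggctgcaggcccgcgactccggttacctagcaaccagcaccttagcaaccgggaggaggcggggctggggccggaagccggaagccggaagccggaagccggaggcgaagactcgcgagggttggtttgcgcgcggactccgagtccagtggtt

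These E2F letters occurred in 14 of the 34 promoters (41.2%), against 2.14% of the 33469 rat promoters in the table. They occurred in 0 of the 6 matched genes called lower in MDD livers and in 11 of the 21 matched genes that were measured and not called (52.4%). The CCAAT box, CCAAT on either strand, was in 22 of the 34 promoters (64.7%), against 37.5% of all promoters. It was in 3 of the 6 called and in 16 of the 21 not called (76.2%). The cell cycle homology region, TTTGAA or TTCGAA on either strand, was in 5 of 34 (14.7%) against 19.7% of all promoters. These counts describe letters in the window and were not tested.

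Of the 31 measured replication genes, 7 fell in MDD livers, 0 rose and 24 were not called by limma. Over all genes tested, 6.55% were called lower and 4.54% higher. The 7 were Prim1, Rpa3, Rfc5, Rpa1, Prim2, Fen1 and Top2a, at 0.551 to 0.722 of the control level. The log2 difference was below 0 in 26 of 31 genes, against 48.2% of all genes. Its median was -0.23 over the 31 genes and 0.01 over all genes, with a range of -0.86 to 0.34. All 4 MDD livers lay below all 4 control livers in 4 of the genes, against 5.96% of all genes, and no replication gene had the groups apart the other way, against 5.52% of all genes. At an unadjusted p under 0.05, 11 of the 31 passed, each lower in MDD livers, against 14.8% of all genes lower and 12.9% higher. Of these 11, Pole was well above background in only 2 of the 4 MDD livers.

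**Figure D1:**
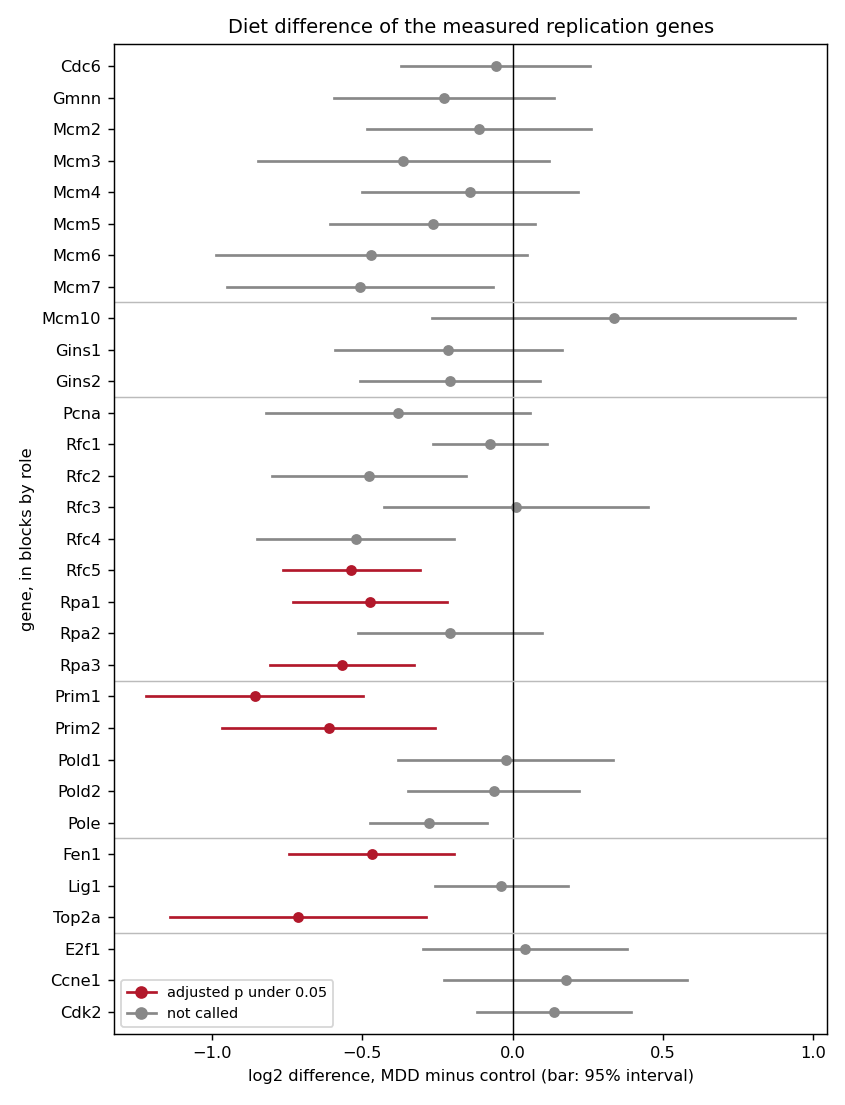
Log2 difference in intensity (x axis, MDD minus control, 4 livers each) of the 31 measured replication genes in blocks by role (y axis), with 95% confidence intervals from limma. The 7 called genes, in red, lie between -0.86 and -0.47, and 26 of the 31 points lie left of 0.

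The calls fell on primase, RPA, RFC and maturation genes. Of the 8 measured licensing genes 0 were called, against 6.55% of all genes called lower, and their median was -0.25. Of the 9 genes of the clamp, its loader and RPA, 3 were called lower with a median of -0.47. Of the 5 measured primase and polymerase genes, 2 were called lower with a median of -0.28, and of the 3 maturation genes 2 were called lower with a median of -0.47. None of the 3 helicase activation genes (median -0.21) or the 3 measured S-phase entry genes (median 0.14) was called, and 0 of these 6 passed an unadjusted p of 0.05. Whether the roles differ from each other was not tested.

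Primase is the enzyme that starts each Okazaki fragment, and both of its subunits fell. Prim1, the catalytic subunit, had log2 intensities of 9.11, 9.91, 9.55 and 9.27 in the 4 MDD livers, against 9.91, 10.00, 10.49 and 10.86 in the 4 control livers. The groups did not overlap, though MDD replicate 2 and control replicate 1 print alike and differ only beyond the second decimal. The difference was -0.86 ± 0.16 (SE, n = 4 each; limma adjusted p = 0.0127), the largest fall among the 31 genes. Prim2, the regulatory subunit, had 8.76, 9.78, 9.43 and 9.77 in MDD livers, against 9.74, 9.79, 10.09 and 10.58 in control livers. MDD replicate 1 was the lowest and control replicate 4 the highest, and 2 MDD livers lay above control replicate 1, so the groups overlapped. The difference was -0.61 ± 0.16 (limma adjusted p = 0.0410), with the MDD liver lower on all 4 arrays but by 0.02 on array 3. The polymerase alpha subunits that complete this complex, Pola1 and Pola2, were well above background in 0 livers.

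The remaining polymerase subunits were not called. Pole, the catalytic subunit of the leading-strand polymerase epsilon, had 6.73, 6.89, 6.80 and 6.85 in MDD livers, against 6.88, 7.01, 7.07 and 7.42 in control livers. The MDD liver was the lower on all 4 arrays, and a single MDD liver lay above the lowest control liver. Its probe was well above background in 4 control livers but only 2 MDD livers, so its MDD values lie near the floor. The difference of -0.28 ± 0.09 had a limma adjusted p of 0.0725. The delta subunits Pold1 (-0.02 ± 0.16, 95% interval -0.38 to 0.33) and Pold2 (-0.06 ± 0.13, -0.35 to 0.22) had intervals on both sides of 0.

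RPA coats single-stranded DNA as a trimer, and 2 of its 3 subunits fell. Rpa3, the smallest subunit, had 10.79, 11.37, 11.18 and 10.99 in MDD livers, against 11.55, 11.54, 11.66 and 11.85 in control livers. The groups did not overlap. The difference was -0.57 ± 0.11 (limma adjusted p = 0.0131), or 0.674 of the control level. Rpa1, the largest subunit and main DNA-binding chain, had 7.26, 7.84, 7.86 and 7.73 in MDD livers, against 7.86, 8.16, 8.13 and 8.43 in control livers. MDD replicate 3 reached control replicate 1, its partner on array 1, while the other 3 MDD livers lay below every control liver. The difference was -0.47 ± 0.11 (limma adjusted p = 0.0334). Rpa2, the middle subunit, had 8.51, 9.34, 9.13 and 9.46 in MDD livers, against 9.08, 9.26, 9.21 and 9.72 in control livers. Here 3 MDD livers lay among the controls, and the difference of -0.21 ± 0.13 was not called (95% interval -0.52 to 0.10).

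The clamp loader RFC has a large subunit and 4 small ones, and 1 of the 5 was called. Rfc5 had 8.95, 9.42, 9.34 and 9.59 in MDD livers, against 9.83, 9.84, 9.86 and 9.92 in control livers. The controls were tightly grouped and lay above every MDD liver. The difference was -0.54 ± 0.10 (limma adjusted p = 0.0133). Rfc4 had 7.82, 8.78, 8.38 and 8.59 in MDD livers, against 8.68, 8.81, 8.90 and 9.28 in control livers. Its difference of -0.52 ± 0.14 was about as large as that of Rfc5 but missed the threshold (limma adjusted p = 0.0524), with MDD replicate 2 above control replicate 1. Rfc2 had 8.89, 9.75, 9.71 and 9.97 in MDD livers, against 9.93, 10.07, 9.87 and 10.36 in control livers, a difference of -0.48 ± 0.14 (limma adjusted p = 0.0657). As for Rfc4, the MDD liver was lower on all 4 arrays. MDD replicate 4 lay above 2 control livers, so the groups overlapped.

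Rfc1, the large subunit, had 11.42, 11.25, 11.63 and 11.36 in MDD livers, against 11.63, 11.34, 11.48 and 11.51 in control livers (-0.08 ± 0.08). Its other 2 probes gave 0.17 and 0.31, so the direction depends on the probe. Rfc3 had 10.13, 10.43, 9.37 and 10.40 in MDD livers, against 9.45, 10.12, 10.15 and 10.57 in control livers (0.01 ± 0.19), with MDD replicate 3 and control replicate 1, both on array 1, as the low livers of their groups. Pcna, the clamp that RFC loads, had 10.09, 11.33, 10.72 and 11.19 in MDD livers, against 10.72, 11.04, 11.18 and 11.92 in control livers. Both MDD males lay within the control range, and the difference of -0.38 ± 0.19 was not called (limma adjusted p = 0.241, 95% interval -0.82 to 0.06).

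**Figure D2:**
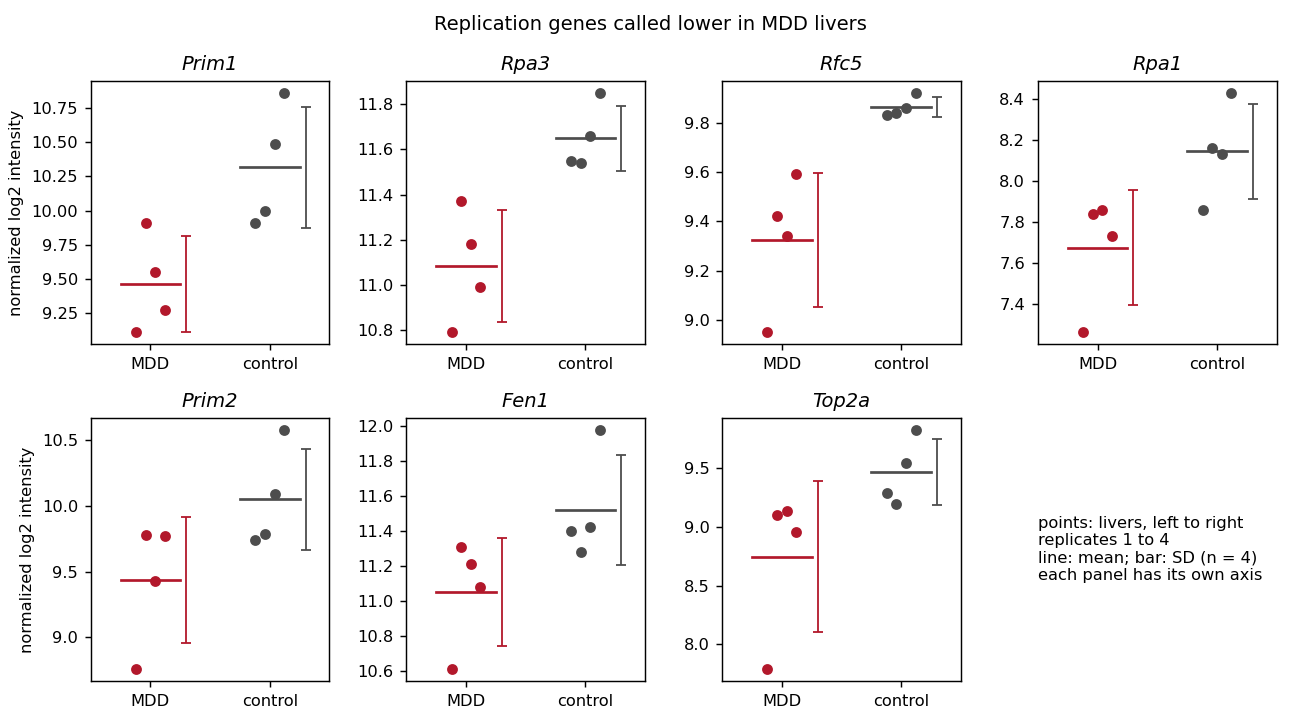
Normalized log2 intensity (y axis, separate for each panel) of the 7 replication genes called lower, with the 4 MDD livers on the left and the 4 control livers on the right of each panel. Lines are means and bars the SD (n = 4). MDD replicate 1 is the lowest point in every panel, and Prim1, Rpa3, Rfc5 and Top2a have groups that do not overlap.

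In the maturation and unlinking step, 2 of 3 genes fell. Fen1, the nuclease that trims the flap of each Okazaki fragment, had 10.61, 11.31, 11.21 and 11.08 in MDD livers, against 11.40, 11.28, 11.42 and 11.98 in control livers. The groups overlapped by MDD replicate 2 and control replicate 2, and the difference was -0.47 ± 0.12 (limma adjusted p = 0.0422). Lig1, the ligase of the same step, differed by -0.04 ± 0.10 (95% interval -0.26 to 0.18). Top2a, which separates sister helices and marks cells in S phase to mitosis, had 7.79, 9.10, 9.14 and 8.96 in MDD livers, against 9.29, 9.20, 9.55 and 9.83 in control livers. The groups did not overlap, and MDD replicate 1 stood far below the other MDD livers. The difference was -0.72 ± 0.19 (limma adjusted p = 0.0447). A dimmer Top2a probe gave -0.15 ± 0.09 and was not called (limma adjusted p = 0.298).

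Licensing genes were below 0 in all 8 measured cases, by -0.06 to -0.51, and 0 were called, with 1 (Mcm7) at an unadjusted p under 0.05. For the 6 MCM2-7 subunits the median was -0.31. Mcm7 had 10.80, 10.81, 10.97 and 10.47 in MDD livers, against 10.93, 11.03, 11.03 and 12.08 in control livers. Control replicate 4 lay more than a log2 unit above every other control, and the difference of -0.51 ± 0.19 was not called (limma adjusted p = 0.132). Mcm6 had 6.85, 8.23, 7.49 and 8.23 in MDD livers, against 7.54, 8.16, 8.01 and 8.97 in control livers (-0.47 ± 0.23). Mcm3 had 9.97, 11.18, 10.34 and 11.03 in MDD livers, against 10.73, 10.79, 10.71 and 11.76 in control livers (-0.36 ± 0.21). In both genes the 2 MDD females were the lowest MDD livers and the 2 MDD males lay within the control range. Mcm5 (-0.27 ± 0.15), Mcm4 (-0.14 ± 0.16) and Mcm2 (-0.11 ± 0.16) differed less. The loader Cdc6 differed by -0.06 ± 0.14 and geminin, Gmnn, by -0.23 ± 0.16. Orc6, read by its older name and not counted, differed by 0.07 ± 0.13. A probe named Orc2l that passed the filter, also not counted, differed by 0.07 ± 0.25.

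The helicase activation and S-phase entry genes held the 4 largest positive differences but no call. Mcm10, which helps fire the loaded helicase, had 9.10, 9.59, 8.72 and 9.57 in MDD livers, against 9.56, 8.51, 8.34 and 9.22 in control livers. It was 0.84 lower in the MDD liver on array 1 and 0.37 to 1.06 higher on the other arrays, so that the mean of 0.34 ± 0.27 was not called (limma adjusted p = 0.452). The GINS subunits Gins1 (-0.21 ± 0.17) and Gins2 (-0.21 ± 0.13), and Cdc45, read by its older name (-0.08 ± 0.20), had intervals on both sides of 0. Ccne1, a cyclin E, differed by 0.18 ± 0.18, its kinase partner Cdk2 by 0.14 ± 0.11 and the transcription factor E2f1 by 0.04 ± 0.15, with -0.08 on a second E2f1 probe.

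**Figure D3:**
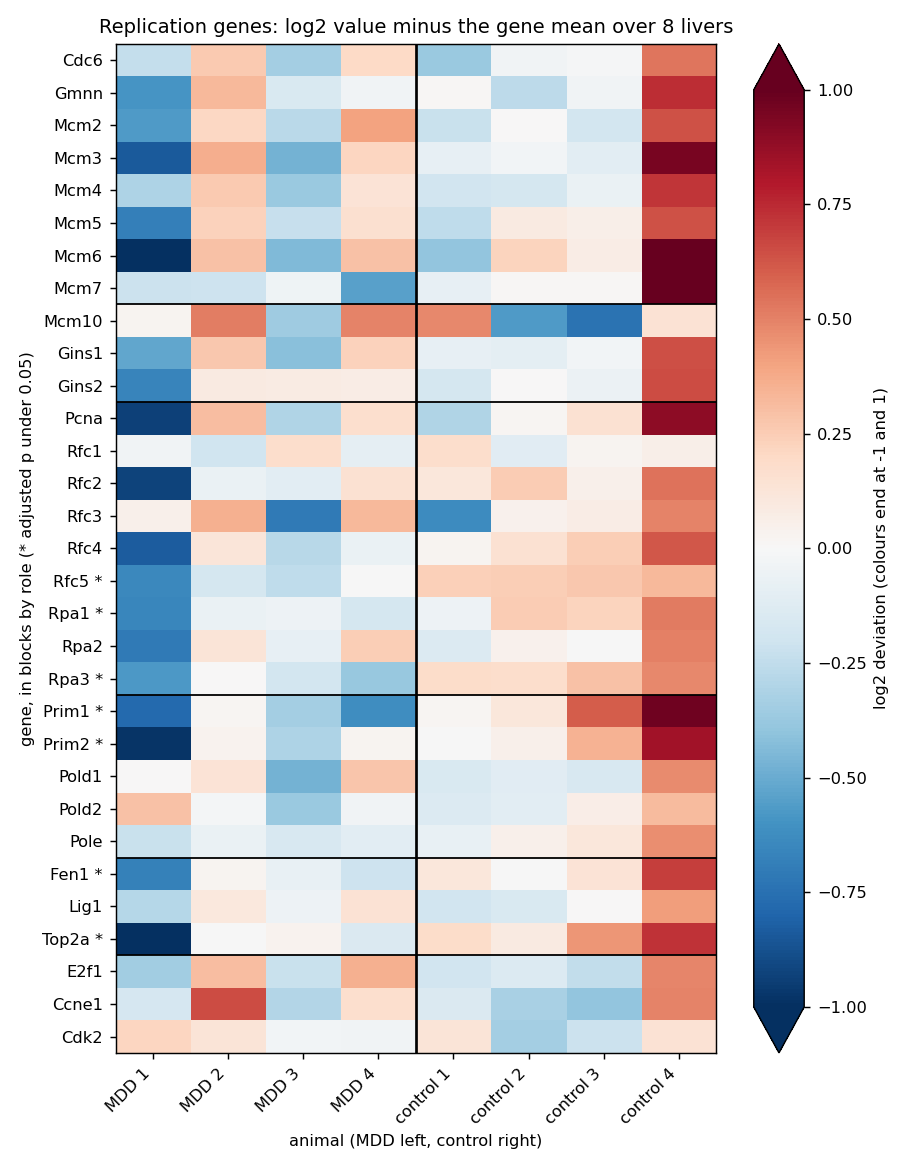
Log2 intensity of each of the 31 replication genes (vertical axis, in blocks by role) minus its mean over the 8 livers (colour), with the 4 MDD livers left and the 4 control livers right. The column of MDD replicate 1 is mostly blue and that of control replicate 4 mostly red, with median deviations of -0.58 and 0.54, and the middle columns are pale.

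The livers of each group differed from each other as a block. The median deviation of the 31 genes from their 8-liver means was -0.58, 0.13, -0.25 and 0.14 in MDD replicates 1 to 4, against -0.08, 0.01, 0.03 and 0.54 in control replicates 1 to 4, while that of all genes stayed between -0.02 and 0.02. The 2 MDD males lay above 3 of the 4 controls by this measure, so the groups overlapped. MDD replicate 1 was the lowest of all 8 livers in 21 of the 31 genes (67.7%), against 26.8% of all genes. Control replicate 4 was the highest of all 8 in 27 of the 31 (87.1%), against 13.3% of all genes. Leaving out both of these livers was a setting chosen after seeing the values, and it shrinks the difference by its construction. In it 0 of the 31 genes were called, against 0.366% of all genes called lower. The median difference of the 31 was 0.12, with 5 genes at an unadjusted p under 0.05. The all-gene median was -0.01, and the all-gene share at an unadjusted p is not given for this setting. All 7 called genes were still below 0 in that setting, Prim1 at -0.57 and Rfc5 at -0.40. They had been called in a fit that included the remaining livers, so the kept sign is not separate support.

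The arrays, each with 1 MDD and 1 control liver, gave unequal differences. On array 2 (MDD replicate 1 over control replicate 3) 26 of 31 genes were lower in the MDD liver, with a median log2 ratio of -0.55. On array 4 (MDD replicate 2 over control replicate 4) 29 were lower, with a median of -0.45, and on array 1 (MDD replicate 3 over control replicate 1) 23 were lower, with a median of -0.15. On array 3 (MDD replicate 4 over control replicate 2) 11 of 31 were lower and the median was 0.08. The all-gene medians lay between -0.01 and 0.01 on all 4. In 9 genes the MDD liver was lower on every array, against 13.8% of all genes, namely Prim1, Prim2, Rpa3, Rfc5, Rfc4, Rfc2, Pole, Fen1 and Top2a. Of these, Pole lay near the floor in MDD livers. In 0 genes was the MDD liver higher on every array, against 13.5% of all genes.

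**Figure D4:**
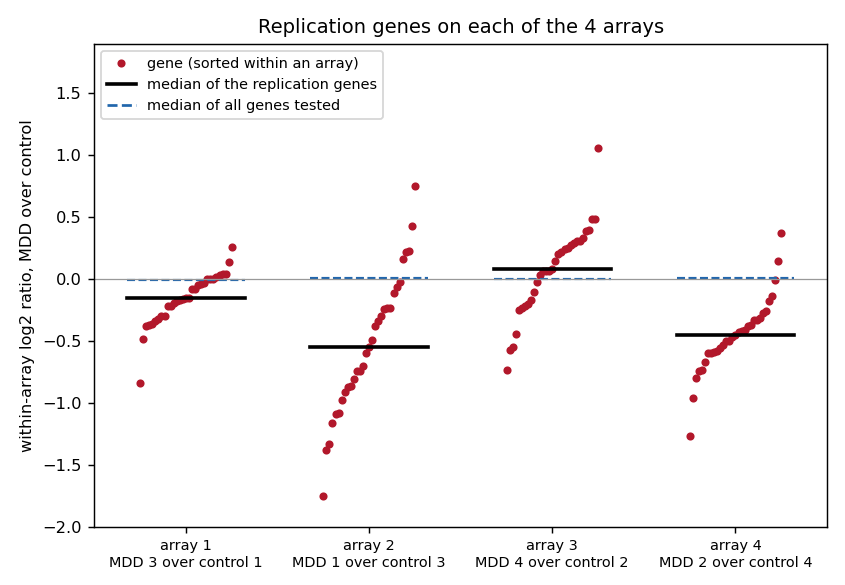
Within-array log2 ratio of MDD over control (y axis) for the 31 replication genes on each of the 4 arrays (x axis), sorted within an array, with the median of these genes (black) and of all genes tested (blue, dashed). The medians are -0.15, -0.55, 0.08 and -0.45 on arrays 1 to 4, and the all-gene medians lie within 0.01 of 0.

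Sex was unevenly spread, with 2 MDD males and 1 control male. Both MDD males lay above both MDD females in 21 of the 31 genes (67.7%), against 16.1% of all genes. With sex as a term 4 of the 31 were called (Prim1, Prim2, Rpa3 and Rfc5), against 3.18% of all genes called lower in the same fit. Among females alone, 2 MDD and 3 control livers, 28 of 31 were below 0 with a median of -0.47, 14 passed an unadjusted p of 0.05 and 0 were called, against 0.22% of all genes called lower. The all-gene median in females was 0.01. The all-gene shares below 0 and at an unadjusted p are not given for females, so those counts have no background here. The diet by sex term was called for 0 of the 31 genes (smallest limma adjusted p = 0.411) and for 0 of the 14993 genes where it could be estimated. Its estimates over the 31 genes ran from -0.97 for Mcm10 to 1.38 for Mcm6. This term rests on the single control male, control replicate 1.

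The calls moved with the processing and with single livers. Of 27 alternative settings, Prim1 was called in 19, Rfc5 in 18, Rpa3 in 17, Rpa1 in 10, Prim2 and Top2a in 8 each and Fen1 in 7. Each of the 7 stayed below 0 in all 27. The 7 had been called in these same livers, so a kept sign is not separate support. The count of called genes was 0 without control replicate 2 or control replicate 3, 1 without control replicate 1 or MDD replicate 4, 3 without control replicate 4, 4 without MDD replicate 1 or MDD replicate 3, and 12 without MDD replicate 2. The share of all genes called lower moved too. It was 2.77%, 2.23%, 1.27% and 4.4% without control replicates 1 to 4. It was 5.55%, 12.9%, 6.35% and 1.86% without MDD replicates 1 to 4, against 6.55% as reported. Where the count was 0, 10 and 11 genes still passed an unadjusted p of 0.05 in the settings without control replicate 2 and without control replicate 3. Leaving out both livers of an array gave 3 called genes for array 1 (Prim1 and Rpa1 lower, Mcm10 higher) and 3 for array 2. It gave 0 for array 3 (9 at an unadjusted p under 0.05) and 11 for array 4. The share of all genes called lower was 4.4%, 3.22%, 0.793% and 11.2% without arrays 1 to 4. The share of all genes at an unadjusted p is not given for the settings that left out a liver or an array. The unadjusted counts above therefore have no background.

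Genes that work beside these members were read from lists of related processes. Among 27 other measured replication fork genes, 1 fell and 1 rose, with a median of -0.12. Pold3, an accessory subunit of polymerase delta, had 9.93, 9.81, 9.87 and 9.81 in MDD livers, against 9.28, 9.16, 9.31 and 9.42 in control livers. Its groups did not overlap, in the direction opposite to Prim1, and the difference was 0.57 ± 0.07 (limma adjusted p = 0.00414). Chaf1b, a subunit of the chromatin assembly factor that places histones behind the fork, fell by 0.56 ± 0.14 on the log2 scale (limma adjusted p = 0.0375). With any single liver other than MDD replicate 2 left out, 0 of the 27 were called lower, and 7 were without MDD replicate 2. In these settings 1 was called higher, or 3 without MDD replicate 3. Rad54l (-0.33 ± 0.10) and the histone chaperone Asf1b (-0.35 ± 0.11) were not called. Of 13 measured checkpoint and repair genes 0 were called and 2 passed an unadjusted p of 0.05, with a median of -0.13 and the uracil glycosylase Ung at -0.43 ± 0.17.

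Deoxynucleotide supply includes the folate-dependent step that makes thymidylate from deoxyuridylate, and the salvage kinase Tk1 offers a second route to it. Of 10 measured genes of this supply, 2 fell and 0 rose, with a median of -0.32. Tk1 had 10.40, 11.20, 11.58 and 11.22 in MDD livers, against 12.01, 11.78, 11.99 and 12.04 in control livers. The groups did not overlap and the difference was -0.85 ± 0.15 (limma adjusted p = 0.0101). Nme1, a nucleoside diphosphate kinase, fell by 0.40 ± 0.09 on the log2 scale (limma adjusted p = 0.0278). The thymidylate kinase Dtymk (-0.53 ± 0.15) and the dUTPase Dut (-0.23 ± 0.09) were not called. The count of this list was 0 without control replicate 1, control replicate 3 or MDD replicate 4, and 5 without MDD replicate 2.

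Of 22 other measured genes that control entry into S phase, 2 rose and 2 fell, with a median of -0.09. Ccnd3, a D-type cyclin of G1, had 11.11, 11.08, 10.38 and 11.22 in MDD livers, against 9.88, 9.76, 9.60 and 9.95 in control livers, and every MDD liver was above every control liver. The difference was 1.15 ± 0.16 (limma adjusted p = 0.00449). Cdkn2c, an inhibitor of the cyclin D kinases, fell by 0.55 ± 0.09 (limma adjusted p = 0.00824). Its values were near the floor, at 6.86, 7.10, 7.24 and 6.93 in MDD livers, against 7.41, 7.51, 7.68 and 7.74 in control livers. Ccna2, the S-phase and G2 cyclin, fell by 0.66 ± 0.14 (limma adjusted p = 0.0200), and the phosphatase Cdc25a rose by 0.33 ± 0.09 (limma adjusted p = 0.0494). With signal required well above background in all 8 livers, 19 of the 22 remained, with 1 called lower and 1 higher. This list held 1 called higher with an offset of 10, loess only or sex as a term, and 4 without MDD replicate 1. Of 27 measured mitosis and G2/M genes, 13 fell and 0 rose, with a median of -0.52. The mitotic kinases Aurka (-0.90 ± 0.16, limma adjusted p = 0.0122) and Aurkb (-0.52 ± 0.10, limma adjusted p = 0.0133) were among them, with the kinetochore gene Nuf2 (-0.81 ± 0.15) and the kinesin Kif20a (-0.66 ± 0.14). With signal required well above background in all 8 livers, 20 mitosis genes remained and 10 fell, against 6.93% of all genes called lower. MDD replicate 1 was the lowest of all 8 livers in 25 of the 27 and control replicate 4 the highest in 20, and the median ratio was -0.13, -1.05, -0.34 and -0.59 on arrays 1 to 4. In alternatives added after the values were seen, 12 of the 27 were called lower without MDD replicate 1, with a median of -0.37, 5 without control replicate 4, and 0 without both, with a median of -0.29. The count was 22 without MDD replicate 2, and 0 without any single one of MDD replicate 4 and control replicates 1, 2 and 3. Whether the mitosis list differs from the replication genes was not tested.

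**Figure D5:**
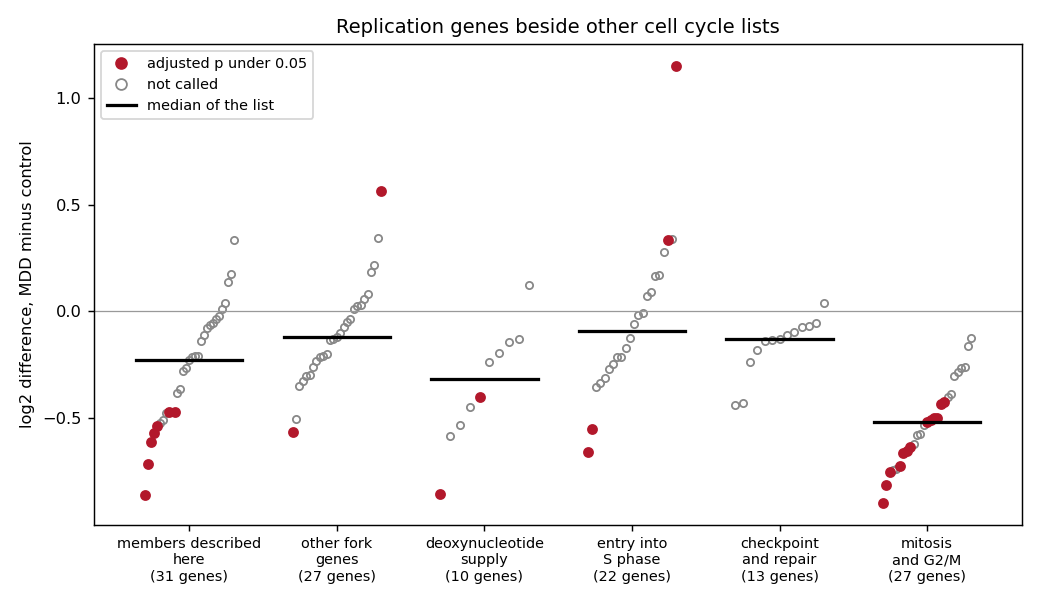
Log2 difference (y axis, MDD minus control) of each measured gene in the replication list and in 5 related lists (x axis), with called genes filled in red and the list median as a black line. The medians are -0.23, -0.12, -0.32, -0.09, -0.13 and -0.52 from left to right, and the highest red point is Ccnd3 at 1.15.

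Markers of cell types moved between the groups as well. Of 14 hepatocyte markers 8 fell and 1 rose, with a median of -0.67, Tf at -1.01 ± 0.16, Fga at -0.98 ± 0.13 and Fgb at -0.74 ± 0.08, and Apoa2 at 1.86 ± 0.14. Of 7 measured neutrophil and myeloid precursor markers 5 fell, with mean log2 intensities of 7.78 to 8.26 in MDD livers and 8.37 to 9.04 in control livers, while the early granule genes Elane and Prtn3 were well above background in 0 livers. Of 8 measured erythroid markers 0 fell, 2 were lower at an unadjusted p under 0.05 (Ahsp at -0.61 ± 0.18 and Slc4a1 at -0.51 ± 0.16) and 1 rose (Tfrc, the transferrin receptor, which dividing cells also express, by 1.55 ± 0.23). The list median was -0.09, with mean log2 intensities of 11.22 to 11.95 in MDD livers and 11.38 to 11.81 in control livers. Of 6 measured lymphocyte markers Cd3g was called, at -0.33 ± 0.08 (limma adjusted p = 0.0309). Their means were 7.72 to 8.03 in MDD livers and 7.85 to 8.12 in control livers, and Cd3e, Cd8a, Lck and Ms4a1 were well above background in 0 livers. The Kupffer cell, endothelial and cholangiocyte lists held 0 called genes of 11, 7 and 5 measured, with 0, 2 and 1 at an unadjusted p under 0.05, and Lrat was the 1 called of 9 stellate cell genes. Of 5 skeletal muscle markers Tnnc2 alone was called, and the list mean ran from 8.46 to 10.51 in MDD livers, highest in MDD replicate 3, against 7.82 to 8.17 in control livers. The part of these shifts in the replication gene differences was not tested.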

How the data were processed

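RNA from 8 rat livers, 4 MDD and 4 control, was read on 4 Agilent 2-colour arrays of 42877 spots each, with 1 liver of each group per array. Per the submitters' processing notes and the file headers, the authors used Agilent Feature Extraction 10.7.1.1, and they deposited its spot intensities for both channels. A second deposited table holds linear intensities that the authors had normalized by a method not stated in the labels, and it served as an alternative. Each liver was read from its own dye, taken from the labels. Replicates were numbered in accession order, which does not pair animals, and livers were placed on the same array where their deposited spot data were identical. The files place probes on rn4.

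Values were computed in R 4.3.3 with limma 3.58.1. Background was corrected by normexp (offset 50) on mean signals after 74 spot values in very high local background (over 5 times the channel median) were left out, then normalized by loess within arrays, with control spots at weight 0, and by Aquantile between arrays. Spots flagged as outliers by the scanner software were left out, and spots of a probe were averaged. A probe entered if well above background in at least 4 of 8 livers, and the brightest probe stood for a gene. The fit had diet and dye as terms and array as a random block (correlation 0.42), with Benjamini-Hochberg adjustment over 15011 genes and a threshold of 0.05. Intervals are at 95%. The fit was tested before use on simulated data, where genes varied independently and changes were larger than that of any replication gene here. No shift shared by the genes of a liver was simulated, so that run is not support for the calls. The number of arrays limits the precision, and median signals of 152.5 to 299.0 stood over median backgrounds of 33 to 58.

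Alternatives changed the background correction, the normalization, the filter on dim probes, the choice of probe, the dye, array and sex terms, sample weights and the source of the intensities, and left out each liver or array in turn. The replication genes and the other lists were chosen with earlier results of these data known. Every listed gene with a probe was named. Values in each liver were given for called genes and for uncalled genes of complexes with a called subunit, with further uncalled MCM genes, Pcna, Pole and Mcm10 chosen after their values were seen. Up to 4 genes with the smallest unadjusted p were named in each other list, apart from the absent defining markers. Symbols of 3794 probes were updated through their RefSeq accessions. The 7409 probes without a symbol were kept, each under its own probe name. Those that passed the filter are therefore counted among the genes tested.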

Additional observations from a re-analysis of the deposited data

Results flagged for a closer look

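In 8 of the 62 groups of 4 livers tested (31 genes in each diet group), a single liver stood apart from the other three by Dixon's ratio, the gap to the nearest liver divided by the range of the group, above the 95% critical value for 4 samples. Chance passes about 1 group in 20, and the groups share the same 8 livers. Control replicate 4 was the high liver among controls for Mcm3 (0.931), Pold1 (0.929), Mcm7 (0.915), Gins1 (0.908), Mcm4 (0.86) and E2f1 (0.851). MDD replicate 1 was the low liver of its group for Gins2 (0.977) and Top2a (0.867). Top2a is the one called gene among these 8. Without MDD replicate 1 it was still called.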

How the results depend on the processing

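The count of replication genes called lower in MDD livers, 7 as reported, was 4 with high-background spots kept, with an offset of 10, without the filter on dim probes, with the authors' deposited intensities and with sex as a term. In that order, 3.78%, 5.55%, 3.03%, 5.48% and 3.18% of all genes were called lower. Without the filter, 36 replication genes were tested among 26719 genes. With signal required well above background in all 8 livers, 7 of 27 were called lower, against 6.93% of 12996 genes. The count was 9 with loess only (adding Rfc2 and Rfc4, 7.57% of all genes) or sample weights (adding Rfc4 and Pole, 10.8%). It was 3 with Agilent processed signals or no dye term, 1 with array as a fixed block (a replicate block by array, Prim1), and 0 without the array block or in females alone. Leaving out a liver or an array gave 0 to 12 called lower and 0 to 1 called higher (Mcm10 without array 1). Over all genes, 983 were called lower and 681 higher as reported. The counts were 568 and 389 with high-background spots kept, 255 and 208 with the fixed array block, 496 and 343 without the dye term, 226 and 172 without the array block, 1619 and 1306 with sample weights, 478 and 335 with sex as a term and 33 and 17 in females alone, and 619 were called lower with processed signals. Leaving out livers or arrays gave 55 to 1935 lower and 27 to 1632 higher. The median difference of the replication genes ran from -0.33 to 0.12 in those settings, and was 0.12 only without both MDD replicate 1 and control replicate 4. No paired analysis was possible because replicate numbers follow accession order, apart from the block by array above.

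Of the genes not called as reported, some turned sign. With sample weights Cdc6 was 0.0020, Mcm2 0.058 and Pold1 0.076. The probe with the smallest p gave 0.31 for Rfc1 and -0.085 for E2f1. Females alone gave 0.11 for Rfc1, -0.50 for Rfc3, -0.22 for E2f1 and -0.036 for Ccne1. High-background spots kept gave -0.050 for Rfc3 and -0.063 for E2f1, sex as a term gave -0.010 for Rfc3 and -0.025 for E2f1, and the authors' deposited intensities gave -0.0285 for Rfc3. Leaving out livers or arrays gave -0.13 to 0.20 for Cdc6, -0.35 to 0.20 for Gmnn, -0.23 to 0.28 for Mcm2, -0.52 to 0.20 for Mcm3, -0.26 to 0.20 for Mcm4, -0.41 to 0.11 for Mcm5, -0.68 to 0.12 for Mcm6, -0.14 to 0.81 for Mcm10, -0.38 to 0.15 for Gins1, -0.30 to 0.16 for Gins2, -0.59 to 0.12 for Pcna, -0.12 to 0.24 for Rfc3, -0.33 to 0.13 for Rpa2, -0.20 to 0.17 for Pold1, -0.20 to 0.077 for Pold2, -0.088 to 0.16 for Lig1 and -0.090 to 0.39 for E2f1. The causes of these sign changes were not tested, and some of these settings held fewer livers.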
